A study of Homo sapiens with 16 samples.

Results

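The AbC G4-ChIP peak lists of HEK293T cells, an established human embryonic kidney line, came from a short-read platform (Ion Torrent S5) and a long-read platform (MinION Mk1B), and the regions on which the platforms differed or concurred are described here. Peaks of the 6 lists were merged wherever they shared at least 1 base, which gave 9606 merged regions covering 24401454 bases of hg38. Of these, 940 (9.79%) held a peak in both Ion Torrent lists and in no MinION list, 223 (2.32%) held a peak in all 4 MinION lists and in no Ion Torrent list, and 553 (5.76%) held a peak in all 6 lists, 1716 regions altogether. The Ion Torrent lists were CTnuc, from cells transduced with a non-targeting lentiviral shRNA, and KDnuc, from cells with a CGGBP1-targeting shRNA. The MinION lists were CTut and KDut, in which antibody-bound control plasmid DNA was mixed into the lysate, and CTtr and KDtr, in which the control and carrier plasmids had been transfected into the cells 12 hours earlier. All 6 samples thus carried an shRNA vector, and the Ion Torrent samples alone received no control DNA. CTnuc and KDnuc were called against 1 pooled input and each MinION library against its own. The platform, the library kit, the read length, the input design and the control DNA changed together and cannot be told apart. Each library was a pool of replicates with 1 list each, so the 2 Ion Torrent and 4 MinION lists are the only samples, and the CT and KD lists are not replicates of 1 condition.

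A G-quadruplex forms where runs of guanines stack into tetrads, and the 1H6 antibody used here binds such structures in fixed, permeabilised cells before lysis. Satellite DNA consists of units repeated head to tail, often over megabases. Alpha satellite, the main DNA of human centromeres, is built from a monomer that can be organised into higher-order repeats, and some monomers carry the CENP-B box, the binding site of centromere protein B. Human satellites II and III, built on the pentamer ATTCC, lie in pericentromeric heterochromatin. In such DNA a short read often matches many places, while a longer read is more likely to span a distinguishing base.

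The lists differed in completeness. The peaks carried serial numbers from the peak caller, which ran to 10757 in CTnuc although 3796 peaks were listed, and to 22266 in KDnuc although 7753 were listed. The 4 MinION lists, with 3496 peaks in CTut, 2927 in KDut, 2367 in CTtr and 2389 in KDtr, missed no number. Of the Ion Torrent numbers, 64.7% in CTnuc and 65.2% in KDnuc were thus not in the lists, and what they stood for was not analysed here. Of the 223 regions found by MinION only, 211 lay between listed neighbours with at least 1 missing number in both Ion Torrent lists and the other 12 in 1 of them. The median gap at the 223 regions was 6 missing numbers in CTnuc and 5 in KDnuc. No share was computed for other positions, so nothing particular to these regions is read from the count. Absence from an Ion Torrent list therefore means absence from the listed peaks.

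The sequences below are single examples from each set of regions and do not stand for the whole set. Alpha satellite was the most frequent repeat of every set, and 300 bases around the first CENP-B box of an example are given for each set, with the box (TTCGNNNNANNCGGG on either strand) in capitals, plus strand, hg38. These examples had the highest fold enrichment, in the list where it was lowest, among alpha satellite regions of their set with a box, a choice made after their values were seen.
Ion Torrent only, chr17:26880900-26881199: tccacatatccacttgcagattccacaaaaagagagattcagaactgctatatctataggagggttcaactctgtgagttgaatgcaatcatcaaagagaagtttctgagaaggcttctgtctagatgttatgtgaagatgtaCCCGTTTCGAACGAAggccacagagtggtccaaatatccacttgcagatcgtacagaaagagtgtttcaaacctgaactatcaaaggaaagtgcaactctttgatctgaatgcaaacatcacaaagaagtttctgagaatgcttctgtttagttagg
MinION only, chr1:123618162-123618461: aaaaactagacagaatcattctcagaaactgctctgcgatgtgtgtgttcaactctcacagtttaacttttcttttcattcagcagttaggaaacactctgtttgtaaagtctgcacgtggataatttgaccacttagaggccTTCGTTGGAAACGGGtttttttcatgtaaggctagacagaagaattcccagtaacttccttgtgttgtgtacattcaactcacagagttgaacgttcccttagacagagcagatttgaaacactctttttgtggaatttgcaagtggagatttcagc
All 6 lists, chr5:49545650-49545949: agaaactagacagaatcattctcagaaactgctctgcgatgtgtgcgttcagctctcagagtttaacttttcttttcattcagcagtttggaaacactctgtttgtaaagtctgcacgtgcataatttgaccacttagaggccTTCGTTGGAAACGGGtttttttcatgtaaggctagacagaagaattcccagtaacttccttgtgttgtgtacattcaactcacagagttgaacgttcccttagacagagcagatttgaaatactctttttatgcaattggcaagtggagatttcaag
The last 22 bases of the Ion Torrent-only example lay beyond the end of its region, which had 644 bases. In that region 35.9% of 150-base windows occurred a single time in the genome, against 12.8% in the alpha satellite regions of its set. The examples from MinION only (chromosome 1) and from all 6 lists (chromosome 5) carried the same letter at 288 of 300 positions, 96.0%, without any gap. Closely similar satellite copies, placed on different chromosomes, thus stood in different sets. In both regions 0% of the 150-base and of the 1000-base windows occurred a single time in the genome. Their placement, and with it their set, is therefore uncertain. The box was found in 84.9% of the Ion Torrent-only regions (798 of 940), in 57.0% of the MinION-only regions (127 of 223) and in 40.5% of the regions in all lists (224 of 553), against 41.7% of all merged regions and 2.02% of 29105 genome intervals of 2000 bases. Since longer regions can hold more boxes, the density is more comparable. It was 202 boxes per 100 kb in the Ion Torrent-only regions, 86.4 in the MinION-only regions and 22.1 in the regions in all lists. All merged regions had 63.5 and the genome intervals 4.70. Within the regions called alpha satellite the densities lay closer together, at 241, 205 and 198 in the order of the sets.

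The next sequences show the pentamer satellite of the MinION-only and shared regions and other DNA of the Ion Torrent-only regions. The first pair are pentamer repeats, with ATTCC and GGAAT in capitals, and were the MinION-only pentamer region of highest lowest fold enrichment (chosen after its values were seen) and the region of highest lowest fold enrichment in all 6 lists.
MinION only, chr17:21916874-21917173: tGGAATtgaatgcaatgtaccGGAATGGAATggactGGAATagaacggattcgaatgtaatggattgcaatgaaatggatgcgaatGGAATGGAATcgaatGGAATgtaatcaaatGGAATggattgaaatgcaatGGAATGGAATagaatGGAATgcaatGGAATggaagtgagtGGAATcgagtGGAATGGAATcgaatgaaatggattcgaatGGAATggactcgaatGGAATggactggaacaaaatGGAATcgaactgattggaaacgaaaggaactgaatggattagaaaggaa
All 6 lists, chr16:46398452-46398751: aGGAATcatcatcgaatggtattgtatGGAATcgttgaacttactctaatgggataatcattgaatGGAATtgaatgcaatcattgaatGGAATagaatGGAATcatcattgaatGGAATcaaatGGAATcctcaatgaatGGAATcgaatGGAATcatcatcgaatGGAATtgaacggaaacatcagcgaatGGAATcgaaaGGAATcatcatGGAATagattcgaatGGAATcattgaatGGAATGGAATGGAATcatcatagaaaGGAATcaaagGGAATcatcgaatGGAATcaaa
The following are 300 bases at the centre of the region with the highest lowest fold enrichment in the Ion Torrent-only set and, chosen after its values were seen, a part of the X-linked macrosatellite described further on, also seen by Ion Torrent only. Runs of 3 or more G or C are in capitals.
Ion Torrent only, chr10:133689328-133689627: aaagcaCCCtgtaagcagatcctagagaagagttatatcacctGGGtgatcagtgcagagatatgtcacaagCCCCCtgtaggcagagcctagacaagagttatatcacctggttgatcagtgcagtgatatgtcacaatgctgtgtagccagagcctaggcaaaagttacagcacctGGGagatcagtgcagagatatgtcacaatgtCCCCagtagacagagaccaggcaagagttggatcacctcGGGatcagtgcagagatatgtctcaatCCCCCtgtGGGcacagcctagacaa
Ion Torrent only, DANT1 and DANT2, chrX:115863614-115863913: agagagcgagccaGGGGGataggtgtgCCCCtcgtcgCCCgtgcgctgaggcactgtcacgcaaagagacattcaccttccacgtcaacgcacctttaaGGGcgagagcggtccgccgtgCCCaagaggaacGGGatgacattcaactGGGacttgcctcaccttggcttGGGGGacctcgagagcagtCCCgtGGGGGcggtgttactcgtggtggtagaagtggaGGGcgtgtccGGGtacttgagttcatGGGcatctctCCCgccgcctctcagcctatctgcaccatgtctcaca
The Ion Torrent-only region on chromosome 10 had 8 such runs in 300 bases and the X-linked macrosatellite 14.

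Presence in the lists was dominated by single-list regions. A peak in 1 Ion Torrent list alone was found at 4109 regions, of which KDnuc held 3555 and CTnuc 554, and a peak in 1 MinION list alone at 2230. Where all 4 MinION lists had a peak, 1 Ion Torrent list joined them at 162 regions, KDnuc at 139 and CTnuc at 23. Where both Ion Torrent lists had a peak and exactly 1 MinION list did, 198 regions, that list was CTut in 178, KDtr in 10, CTtr in 7 and KDut in 3. CTut thus shared regions with the Ion Torrent lists that the other MinION lists did not hold.

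The Ion Torrent-only regions were mostly periodic, and how many counted as alpha satellite depended on the definition. A region was called alpha satellite where more than 50% of its bases matched the base 1 or 2 alpha units further on, which held for 660 of 940 regions, 70.2% (95% exact Clopper-Pearson interval 67.2% to 73.1%, counting error only). The distance of 2 units was added after the data were seen. By the match 1 unit on alone, alpha satellite took 31.8% of the Ion Torrent-only regions, 32.3% of the MinION-only regions, 14.8% of the regions in all lists and 19.4% of all merged regions. Together with the pentamer, tandem repeats by this stricter definition were 32.2%, 50.2%, 19.2% and 20.8% in the same order, so that the MinION-only set then had the largest share. Another 172 regions (18.3%) repeated at another period of 100 bases or more, and these carried 186 CENP-B boxes per 100 kb, against 241 in those called alpha satellite. Pentamer satellite was found in 4 regions and a period under 100 bases in 2. The remaining 102 regions (10.9%) had none of these repeats, a higher median GC content (44.4%, against 39.1% in the alpha satellite regions) and 27.0 GGG or CCC triplets per kb, against 7.07. By best period, 65 regions repeated at 338 to 342 bases, the alpha dimer, 66 at 1018 to 1024 bases and 80 at 3055 to 3062 bases.

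The MinION-only regions were a more mixed group of tandem repeats. Alpha satellite took 111 of 223 regions, 49.8% (43.0% to 56.5%), and pentamer satellite 40, 17.9% (13.1% to 23.6%), a class that held 0.426% of the Ion Torrent-only regions (0.116% to 1.09%). Other repeats with a period under 100 bases, the size of minisatellites, took 22 regions, 9.87% (6.29% to 14.6%), against 0.213% (0.0258% to 0.766%) of the Ion Torrent-only regions. These 22 regions had a median GC content of 53.3% and 21.4 triplets per kb. By bases, pentamer satellite was the largest of these classes, with 253248 of 685509 bases and a median region length of 4274 bases.

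The regions in all 6 lists held fewer satellites and were longer. No repeat of these kinds was found in 286 of 553 regions, 51.7% (47.5% to 56.0%), and these held 8449003 of the 10136258 bases. Alpha satellite took 196 regions (35.4%) and pentamer satellite 24 (4.34%). Among the genome intervals, 97.6% had none of these repeats, 1.72% were alpha satellite and 0.0859% pentamer satellite. Among all merged regions, 33.6% were alpha satellite and 1.37% pentamer satellite. The share of alpha satellite lay above that of the merged regions in both the Ion Torrent-only and the MinION-only set, by either definition. The share of pentamer satellite did so in the MinION-only set and, to a smaller extent, in the regions in all lists.

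The sets also differed by chromosome. Of the Ion Torrent-only regions, 149 (15.9%) lay on chromosome 1, 115 (12.2%) each on chromosomes 5 and 19, 91 on chromosome 4, 86 on chromosome 7 and 59 on chromosome 10. Of all merged regions, 13.3% lay on chromosome 1, 5.30% on chromosome 5 and 4.78% on chromosome 19, so the share on chromosome 1 was near that of all regions. On chromosomes 1, 5, 7 and 19, 113, 109, 85 and 111 of them lay inside an alpha satellite array, a run of 100 kb or more of alpha satellite in the assembly, while no array was registered at the regions of chromosome 4. The 5 megabases with the most such regions held 252 of them (26.8%), and the first was the interval from 124 to 125 Mb of chromosome 1 with 67. The MinION-only regions were spread more evenly, with 26 on chromosome 1 (11.7%), 17 on chromosome 17, 16 on chromosome 3 and 15 on chromosome 20, and their 5 densest megabases held 37 (16.6%). Chromosome 17 held 14.9% of their bases, mostly in pentamer satellite.

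Chromosome 13 was prominent in the merged regions as a whole, with 17.6% of them, and in the shared regions. It held 126 of the 553 regions in all lists (22.8%) and 57.9% of their bases, against 3.77% of the genome, but 23 (2.45%) of the Ion Torrent-only regions and 5 (2.24%) of the MinION-only regions. In the single lists, 20.7% and 21.5% of the CTnuc and KDnuc peaks lay on it, 23.2% in CTut, and 34.4% to 37.1% in the other MinION lists. Chromosome 10 from 40 to 41 Mb, in the centromere, was the megabase with the most shared regions, 30.

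Region length differed between the sets. The median was 1226 bases in the Ion Torrent-only set (quartiles 904 and 1737), 1933 in the MinION-only set (1439 and 3474) and 6612 in the regions in all lists (3489 and 19186). Merging itself lengthens regions with more lists. Within the regions in all lists, the Ion Torrent peaks covered 28.7% (CTnuc) and 41.3% (KDnuc) of the bases and the MinION peaks 55.9% (KDtr) to 74.7% (KDut). CTnuc broke the 553 regions into 1619 peaks and KDnuc into 2072, while the MinION lists held 1016 to 1268 there. The shared regions therefore consisted of longer MinION peaks over more, shorter Ion Torrent peaks.

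Fold enrichment, the ratio of immunoprecipitated to input signal given by the peak caller, was of similar size in the sets. In the Ion Torrent-only regions its median was 6.06 in CTnuc (range 4.33 to 29.1) and 5.88 in KDnuc (4.11 to 34.6), against 5.22 and 4.69 over all peaks of those lists. In the MinION-only regions the medians were 6.90 in CTut, 5.65 in KDut, 5.41 in CTtr and 5.90 in KDtr, against 4.01, 3.72, 3.75 and 4.21 over all their peaks. In the regions in all lists they were 5.80 in CTnuc, 5.70 in KDnuc, 5.72 in CTut, 4.74 in KDut, 4.44 in CTtr and 4.92 in KDtr. In each list the median of each set thus lay above that of all its peaks. The sets were chosen by peaks in several lists, and the highest peak of a region was taken, so no conclusion is drawn from this.

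How often a sequence recurs in the genome also differed. Of 150-base windows, a length of the order of a short read, 17.0% in the Ion Torrent-only regions occurred a single time in the genome (both strands, exact match), against 61.3% in the MinION-only regions, 83.3% in the regions in all lists, 67.6% in all merged regions and 96.2% of the genome. Of 1000-base windows, 53.1%, 86.8% and 94.1% were single in the same order, against 98.9% of the genome. No single 150-base window at all was found in 487 of the 940 Ion Torrent-only regions (51.8%), 47 of the 223 MinION-only regions (21.1%) and 87 of the 553 in all lists (15.7%). The regions seen by short reads only were therefore the most repetitive of the 3 sets at both lengths. Within alpha satellite the values were closer, 12.8%, 20.3% and 28.5% at 150 bases. In the regions without alpha satellite, pentamer satellite or another periodic repeat they stayed apart, at 41.1%, 86.3% and 90.6%.

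The same property was compared between the lists themselves. The share of single 150-base windows was 49.8% in CTnuc and 56.2% in KDnuc, and 66.4% in CTut, 82.6% in KDut, 82.0% in CTtr and 81.6% in KDtr. All MinION lists lay above both Ion Torrent lists, with CTut nearest to them. The platform means were 53.0% ± 4.54 (SD, n = 2) and 78.2% ± 7.82 (SD, n = 4), a difference of -25.2 percentage points (Ion Torrent minus MinION), and the two-sided exact permutation test over the 15 possible splits of the lists gave p = 0.0667, the smallest value these lists allow, and 0.117 after Benjamini-Hochberg adjustment over 7 measures. No measure could therefore pass a threshold of 0.05.

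Peaks were shorter in the Ion Torrent lists. The median length was 986 bases in CTnuc and 920 in KDnuc, and 1959 in CTut, 1813 in KDut, 1652 in CTtr and 1643 in KDtr. Median fold enrichment was higher, 5.22 and 4.69 against 4.01, 3.72, 3.75 and 4.21, and so was median GC content, 39.0% and 39.2% against 38.5%, 37.8%, 38.0% and 37.5%. For each of these 3 measures the platforms did not overlap, and the exact permutation p was again 0.0667 (adjusted 0.117). The differences were -814 bases, 1.03 in fold enrichment and 1.14 percentage points of GC. At a −log10 q of at least 4 they were -318 bases (exact permutation p = 0.2) and 0.286 points of GC (p = 0.133 by the same exact permutation). Without chromosome 13 they were -533 bases (exact permutation p = 0.133) and 0.397 points of GC. With equal numbers of peaks the difference in fold enrichment was 1.93.

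The other measures overlapped between platforms. Tandem repeats by the 1-unit alpha match or the pentamer made up 22.7% and 17.9% of the CTnuc and KDnuc peaks and 28.5%, 17.4%, 21.9% and 18.2% of the CTut, KDut, CTtr and KDtr peaks (exact permutation p = 0.933, adjusted 0.933). GGG or CCC triplets per kb were 10.7 and 13.5 against 11.5, 13.1, 12.3 and 12.3 (p = 0.867 by the same exact permutation, adjusted 0.933). Peaks between genes were 78.9% and 69.1% against 77.7%, 66.0%, 73.2% and 67.6% (exact permutation p = 0.533, adjusted 0.747). Each CT list lay above the KD list of the same treatment in tandem repeats and in the share between genes, and below it in triplets. With 2367 peaks taken from every list the triplets no longer overlapped, at a difference of -3.47 per kb (exact permutation p = 0.0667).

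The distance to the other platform was short for many regions. Of the Ion Torrent-only regions, 56.0% (52.7% to 59.2%) had a MinION peak within 10 kb, at a median distance of 7798 bases, and of the MinION-only regions 45.3% (38.6% to 52.1%) had an Ion Torrent peak within 10 kb, at a median of 12563 bases. Counted from the lists, 58.6% of CTnuc and 41.6% of KDnuc peaks overlapped a MinION peak, and 54.7% of CTut, 48.2% of KDut, 62.7% of CTtr and 57.5% of KDtr peaks overlapped an Ion Torrent peak.

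The other 3 immunoprecipitations of the series, all on MinION and none used to choose the regions, were laid over the sets. DNA-IPdenat, an in vitro pull-down of heat-denatured and snap-chilled genomic DNA, overlapped 216 of the 940 Ion Torrent-only regions (20.3% to 25.8%), 77.1% of the MinION-only regions (71.1% to 82.5%) and 72.3% of the regions in all lists (68.4% to 76.0%), against 22.3% of all merged regions. Conventional G4-ChIP overlapped 0.532%, 26.5% and 50.8% in the same order, and DNA-IPnat, the pull-down of genomic DNA that was not denatured, 0 of 940, 21.5% and 18.8%. The 0 of 940 allows a share of up to 0.392% by the exact interval. Of all merged regions, conventional G4-ChIP overlapped 5.403% and DNA-IPnat 1.936%. Within alpha satellite DNA-IPdenat overlapped 24.4% of the Ion Torrent-only, 86.5% of the MinION-only and 98.5% of the shared regions, whose median lengths were 1219, 1647 and 3652 bases. These lists share the MinION platform with the MinION-only set, and the part of platform and of length in the difference was not tested.

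The canonical G4 signature (4 runs of at least 3 guanines with loops of 1 to 7 bases, either strand) was found in 2.77% of the Ion Torrent-only regions, 4.93% of the MinION-only regions and 31.5% of the longer regions in all lists, against 6.30% of merged regions and 16.5% of genome intervals of 2000 bases. Median triplet density was 7.49, 8.09 and 12.5 per kb, against 22.0 in the genome intervals. All 3 sets were thus poorer in guanine triplets than the genome intervals. Similarity to the 7SL RNA gene RN7SL1, from which Alu repeats derive and which registers only part of them, covered 0.0966%, 0.165% and 1.20% of the bases, against 0.991% in all merged regions and 2.96% in the genome intervals.

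Few regions touched genes. A gene of any type was overlapped by 7.66% of the Ion Torrent-only regions, 15.7% of the MinION-only regions and 28.4% of the regions in all lists. The share was 31.5% of merged regions and 62.6% of genome intervals. A protein-coding gene was overlapped by 2.13%, 10.8% and 5.42%, against 19.9% of merged regions and 45.6% of genome intervals. The coding genes numbered 19, 21 and 21. The MinION-only set was thus the one with the largest share of regions in coding genes, 24 regions.

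In the Ion Torrent-only set, 8 of the 19 coding genes belonged to the list of recently duplicated families (3.57% of the 224 genes on that list, against 0.0951% of all 19970 protein-coding genes), 5 of them USP17 genes, which encode nearly identical deubiquitinases in a tandem array on chromosome 4. USP17L27 and USP17L5 were covered over their whole length, in repeats of 4745 bases, with a self-match of 99.9% at USP17L27, and had fold enrichments of 5.18 and 4.85 in CTnuc and 5.15 and 4.82 in KDnuc. NBPF26, of the neuroblastoma breakpoint family, was overlapped by 2 regions, both reaching exons, with 6.22 in CTnuc and 6.56 in KDnuc, and POTEG by 1 with 4.48 and 4.65. CROCC, which encodes rootletin of the ciliary rootlet, held 2 intronic regions, and CCDC200, NXF2, an X-linked mRNA export factor, and TLE4, a transcriptional corepressor, 1 each. The lists of zinc finger, olfactory receptor, cadherin and ribosomal RNA genes (516, 416, 93 and 521 genes) had 0 members overlapped, from which nothing is read, since the share over all coding genes is so low. Near-identical copies can share reads, so the placement within such families is uncertain.

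In the MinION-only set, 4 of the 8 leading genes, TTC34, ZNF717, TMEM242 and MUC3A, held a repeat with a period under 100 bases in the first of their regions. TTC34, a tetratricopeptide repeat gene on chromosome 1, contained 4 intronic regions of 19.9 kb together, the first at chr1:2652040-2656458 with a 40-base period and 62.3% GC, and highest fold enrichments of 9.51 in CTut, 6.64 in KDut, 6.32 in CTtr and 6.17 in KDtr. MUC3A, which encodes an intestinal membrane mucin, was reached at an exon (chr7:100956199-100959255, period 51 bases), with 9.90, 10.9, 8.23 and 12.0 in the same order. PTPRN2, which encodes a receptor-type phosphatase-like protein of secretory granules, had an intronic repeat of 114 bases (self-match 95.6%) with 8.30, 9.90, 10.1 and 10.5. TMEM242 had an intronic 34-base repeat with 7.53, 7.71, 7.39 and 7.78, and ZNF717 an intronic 48-base repeat with 5.78, 4.48, 4.48 and 5.54. EXD3 carried an intronic region with a weaker 30-base period (55.2%), and the intronic regions of GAREM1 and FANK1 had no clear period. Of the lists, 1 zinc finger gene (ZNF717) and 1 recent duplicate (GOLGA6C) were overlapped.

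In all 6 lists, the genes included very large stretches. PCDH9, which encodes a protocadherin expressed in the nervous system, was covered over 98.9% of its 928 kb by 7 merged regions. Highest fold enrichments were 5.81 in CTnuc, 6.00 in KDnuc, 4.18 in CTut, 4.41 in KDut, 4.78 in CTtr and 5.00 in KDtr. The longest region, chr13:66825330-67310778 of 485449 bases, overlapped this gene. It joined 95 peaks of CTnuc, 103 of KDnuc, 34 of CTut, 21 of KDut, 24 of CTtr and 52 of KDtr. TLE4 was covered over 97.3% by 2 merged regions, and the Ion Torrent-only region in this gene (chr9:79639032-79640545) lay in the gap between them. These shares are for the peaks of all lists merged, and the part of each gene covered by a single list is not given here. LPA, the apolipoprotein(a) gene with its repeated kringle exons, had 30.9 kb in 2 regions, in which 7.18% of 150-base windows were single. DUX4, in the subtelomeric macrosatellite of chromosome 4, reached 19.5 in CTnuc and 23.1 in KDnuc against 6.23 to 8.67 in the MinION lists. NBPF1, CCDC200, ZNF717 and CROCC completed the first 8. Recently duplicated families were met here as in the Ion Torrent-only set, with 5 of their 224 genes overlapped (2.23%), against 0.105% of all protein-coding genes. These were FRG2C, NBPF1, NBPF14, USP17L23 and USP17L24. Of the ribosomal RNA list, 21 of 521 genes were overlapped, mostly the 5S genes RNA5S1 to RNA5S17 of the chromosome 1 cluster. They lay in 6 regions, and the other sets, with 0 such genes, covered far fewer bases.

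An X-linked macrosatellite at the long noncoding RNA genes DANT1 and DANT2 showed regions of 2 of the sets side by side, and was chosen for description after its values were seen. Of 9 merged regions there, 6 were in both Ion Torrent lists and no MinION list, 2 in all 6 lists and 1 in 5 lists. CTnuc had 14 peaks over 30.7 kb and KDnuc 9 over 46.9 kb, while CTut had 3 over 13.0 kb, KDut 3 over 12.7 kb, CTtr 2 over 11.7 kb and KDtr 3 over 12.0 kb. The best period of the 6 Ion Torrent-only regions was 2969 to 3009 bases, with a self-match above 60% in 4 of them and of 48.3% and 55.5% in the 2 longest. They had 58.6% to 63.6% GC and 62.6 to 78.7 triplets per kb, and each held the canonical G4 signature. The 2 regions in all lists were alike in this, with 61.0% and 60.4% GC, 68.9 and 68.5 triplets per kb and the signature. So was the region in 5 lists, with 61.1% GC, 69.8 triplets per kb and the signature. Single 150-base windows made up 0% to 11.3% of the Ion Torrent-only regions, against 18.7% and 20.5% in the regions in all lists. The Ion Torrent-only regions here were thus repetitive. They were guanine-rich like their neighbours, but unlike the alpha satellite regions of their set.

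The longest and strongest regions also differed between the sets. The longest Ion Torrent-only regions were alpha satellite of the X chromosome with a period of 2057 bases, led by chrX:58539465-58555540 of 16076 bases with 30 CENP-B boxes, at 14.2 in CTnuc and 16.2 in KDnuc. The next 2, of 9301 and 9147 bases, were of the same kind, the fourth was the macrosatellite at DANT1 and DANT2, and the fifth an alpha satellite region on chromosome 9. The strongest lay near the end of chromosome 10 (chr10:133688598-133690358), with 29.1 in CTnuc and 34.6 in KDnuc and an incomplete 68-base period (self-match 53.4%). The next strongest, chr16:46388485-46389789, was pentamer satellite at 25.6 and 28.6, and the other 3 were alpha satellite on chromosomes 17 and 20 and an AT-rich repeat (27.8% GC) on chromosome 4.

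The 5 longest MinION-only regions were all pentamer satellite, 4 on chromosome 17 and 1 on chromosome 22. The first, chr17:21968507-21992284 of 23778 bases, consisted of ATTCC or GGAAT over 52.1% of its bases and had 11.2 in CTut, 12.0 in KDut, 8.27 in CTtr and 11.6 in KDtr. Among the strongest, chr1:123618019-123619427 and chr19:26023403-26024848 were alpha satellite with 12.8 and 12.6 in CTut, and chr17:21916091-21917956 was pentamer satellite with 13.7. In the regions in all lists, the 5 longest lay on chromosome 13 (4) and at TLE4 on chromosome 9, and the strongest was pentamer satellite, chr16:46395034-46402170, with 23.4 in CTnuc, 23.6 in KDnuc, 26.8 in CTut, 21.6 in KDut, 16.1 in CTtr and 13.5 in KDtr. This region lay within 10 kb of the pentamer region seen by Ion Torrent only. The peak of highest fold enrichment of every list was pentamer satellite in a region shared by all lists, on chromosome 16 in CTnuc (44.6), KDnuc (51.0), CTut (26.8) and KDut (21.6) and on chromosome 1 in CTtr (18.4) and KDtr (20.1).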

How the data were processed

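Alignment by the authors used hg38, leaving out chromosome Y and the mitochondrial genome, with unique alignments kept. They called broad peaks with MACS2 against inputs. The names minimap2 and MACS2 are in the submitters' processing notes, without versions, and the sources differ on the aligner of the Ion Torrent reads. Each library was a pool of replicates, the lists give no read depth, and read numbers stated for some libraries elsewhere in the sources were not used here, so intervals cover counting error only. The deposited lists give for each peak the position, a whole-number score (10 times the −log10 q), the fold enrichment (a ratio to input) and the deposited −log10 p-value and −log10 q-value. All peaks lay within the chromosomes of the hg38 reference used.

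Peaks were merged over shared bases, and a list was present where any of its peaks lay in a region. GC content, triplets (GGG or CCC), CENP-B boxes, canonical signatures and pentamer satellite (ATTCC or GGAAT over more than 10% of bases) were counted in the reference. Alpha satellite was called from self-matches 1 or 2 alpha units on; the second distance was added after the data were seen, and the platform test of tandem repeats used the first alone. The best period was sought from 20 to 5000 bases, with a self-match above 60%. Windows were centred on every 10th base of a region and could reach beyond its ends, those of 1000 bases the furthest. Gene overlaps used GENCODE 44, and Alu similarity used blastn 2.17.0 (E-value 1e-5). Platforms were compared by two-sided exact permutation in Python 3.11.15 with pandas and numpy. The functions were tested on simulated data, with 18 of 18 checks passed.

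Named regions were the 5 longest of each set and the 5 with the highest fold enrichment in the list where it was lowest. Named genes were the 8 protein-coding genes overlapped by most regions, with ties broken by bases. Exceptions are stated in the text. The first MinION-only region by fold enrichment and its sequence are not reported here. Other settings were a stricter −log10 q of 4, 1 kb merging, 50% coverage, equal numbers of peaks (2367 per list), no chromosome 13, each list left out, other repeat limits, 1000-base windows and coding genes alone. The members and lists were chosen with earlier results of these data known.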

Additional observations from a re-analysis of the deposited data

Results flagged for a closer look

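Among 11 measures over the 4 MinION lists, CTut stood apart in 1. In this list 66.4% of 150-base windows were found a single time in the genome, and its gap to the nearest of the other lists was 0.937 of the whole range, above Dixon's 95% critical value for 4 samples. About 1 in 20 such groups passes that limit by chance. CTut also had the highest share of alpha satellite peaks among the MinION lists, 39.3% against 23.3% to 28.7%, near the 38.8% of CTnuc and above the 31.0% of KDnuc, although this gap did not pass the limit. The part of the library in this difference was not tested.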

How the results depend on the processing

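Over 88 recalculations of the 7 platform differences, 78 kept their direction and 10 reversed, and none reached p = 0.05, which the exact permutation of 6 or fewer lists could not give (lowest p 0.0667; 0.111 where labels were permuted within the CT and within the KD lists). The reversals touched only measures whose platforms overlapped. The difference in tandem repeats (-1.18 percentage points) became 5.58 with equal numbers of peaks, 7.01 at an alpha match limit of 40%, 4.89 with matches 1 or 2 alpha units on and 1.27 among peaks of at least 921 bases, and that in triplets (-0.23 per kb) became 2.88 without alpha and pentamer satellite peaks. The last 3 settings were chosen after seeing the data, and without satellite peaks the tandem repeat share is 0 in every list by construction, so that this setting gives it no value. Large moves without reversal were a length difference of -318 bases and a GC difference of 0.286 points at a −log10 q of at least 4, -533 bases and 0.397 points without chromosome 13, and, with equal numbers of peaks, 1.93 in fold enrichment, -3.47 triplets per kb and 12.6 points between genes. Without satellite peaks GC differed by 2.91 points and single 150-base windows by -17.3 points. At 1000 bases single windows differed by -12.8 points. The regions in all 6 lists fell from 553 to 265 at a −log10 q of at least 4, 341 with equal numbers of peaks, 107 where each list had to cover 50% of a region and 353 among peaks of at least 921 bases, where the Ion Torrent-only regions numbered 402. With equal numbers of peaks the Ion Torrent-only regions fell from 940 to 641, while the MinION-only regions rose from 223 to 332. At a −log10 q of at least 4 these 2 sets numbered 634 and 226. Without alpha and pentamer satellite peaks the Ion Torrent-only, MinION-only and shared regions numbered 283, 64 and 302. The lower counts follow from fewer peaks or a stricter rule.

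Leaving out 1 list at a time gave 949 to 4529 Ion Torrent-only regions (1570 without KDnuc, 4529 without CTnuc), 249 to 365 MinION-only regions (365 without KDnuc) and 586 to 689 shared regions. A list that is left out no longer has to hold, or to lack, a peak. The differences ranged from -855 to -750 bases in length, 0.763 to 1.30 in fold enrichment, 0.987 to 1.32 percentage points in GC, -29.1 to -21.9 in single 150-base windows, -3.58 to 1.23 in tandem repeats, -1.66 to 1.19 triplets per kb and -2.05 to 7.79 percentage points between genes. The direction turned without KDnuc or CTut for tandem repeats, without CTnuc or KDut for triplets and without CTnuc for the share between genes. With 1 Ion Torrent list left, that list is assumed to stand for the platform. No paired analysis was possible because each library gave 1 pooled list and the numbers do not mark shared cultures. Read depth was not used here and, like the peaks missing from the Ion Torrent numbering, limits every statement on absence.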
